A study of Mus musculus with 9 samples.

Results

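The genes described here sense DNA damage or repair it. They are 45 genes named on a list, out of 54532 gene identifiers in the read count table, and the list goes by what the genes are known to do. By pathway they comprise 10 genes of damage signalling, 7 of end joining, 11 of homologous recombination, 2 of the Fanconi anaemia pathway, 9 of base excision and single-strand break repair, 4 of nucleotide excision repair, the mismatch repair gene Msh6, and Xrra1. All 45 were in the table, and all 45 passed the filter on low counts that left 15224 genes for testing.

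Bulk RNA sequencing was done on submandibular salivary glands of wild-type (WT) mice. All 9 libraries came from glands given 10 Gy of radiation, collected 30, 60 or 90 days later, with 3 libraries at each time. Strain, sex and age are not in the labels, and non-irradiated glands were not analysed here, so the comparisons are between late time points, in which the time since irradiation and the animals' age cannot be told apart. It is not recorded that the 3 libraries of a time came from separate animals, and the p-values measure only the spread between these libraries. In whole-gland RNA, fewer cells of a type and less RNA per cell cannot be told apart.

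Cells meet a double-strand break with the kinase Atm, which is switched on at the break by the Mre11, Rad50 and Nbn complex and passes the signal to Chek2, Mdc1, Trp53bp1 and the ubiquitin ligases Rnf8 and Rnf168. Single-stranded DNA is read by Atr, which signals to Chek1. Breaks are then rejoined end to end, in any phase of the cell cycle, or copied from the sister chromatid by homologous recombination, which is tied to S and G2 phase. Base excision repair removes oxidised and lost bases, nucleotide excision repair removes bulky lesions, and mismatch repair corrects copying errors. An adult salivary gland consists mostly of cells that do not divide, so the recombination and Fanconi anaemia genes are usually low there.

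The libraries held 16541396 to 26065856 counts each, and the 30-day libraries were the shallowest. The top gene of a library held 31.4% (90-day library 2) to 42.8% (30-day library 1) of its counts. Expression is given as CPM, the share of a library's counts, scaled by TMM (trimmed mean of M-values). The TMM factors ran from 0.824 in 30-day library 1 to 1.19 in 90-day library 2. Differences are log2 fold changes with their standard error (SE), and the adjusted p is that of edgeR's quasi-likelihood test with Benjamini-Hochberg adjustment over all 15224 genes, with 0.05 as the threshold. The summed acinar cell markers ran from 46041 to 128274 CPM and the granular duct markers from 19957 to 44025 CPM. One library stood apart for these genes: 60-day library 3 held the highest CPM of 15 of the 45 members (33.3%), against 10.96% of all tested genes. Its summed CPM of 20 proliferation markers was 286.1, the highest of the 9 libraries, where the others ran from 102.7 to 198.4. Results that rest on it are given with and without it.

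Promoters of 38 of the 45 genes were found in the RefSeq table for GRCm38.p6, which holds 300 bases for each entry (250 before a start and 50 after). For each member the entry nearest its annotated gene start was used. No entry was found for Rad50, Nbn, Prkdc, Xrcc2, Fancd2, Polb and Ercc3. Below are the 250 bases before the RefSeq start of 4 genes, read 5′ to 3′ in the direction of the gene. Atm and Xrra1 are shown because their RNA fell between 30 and 90 days, and Chek1 and Mdc1 because they had the highest Pearson correlations with the proliferation markers over the 9 libraries. Capitals mark matches to the E2F words and the CCAAT box, on either strand.
Atm, chr9:53536672-53536921, minus strand: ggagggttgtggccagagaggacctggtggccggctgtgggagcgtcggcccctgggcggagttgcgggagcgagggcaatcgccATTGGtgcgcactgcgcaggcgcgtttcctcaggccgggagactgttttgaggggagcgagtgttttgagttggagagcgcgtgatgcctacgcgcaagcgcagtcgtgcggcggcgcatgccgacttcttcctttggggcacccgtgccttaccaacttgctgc
Xrra1, chr7:99858968-99859217, plus strand: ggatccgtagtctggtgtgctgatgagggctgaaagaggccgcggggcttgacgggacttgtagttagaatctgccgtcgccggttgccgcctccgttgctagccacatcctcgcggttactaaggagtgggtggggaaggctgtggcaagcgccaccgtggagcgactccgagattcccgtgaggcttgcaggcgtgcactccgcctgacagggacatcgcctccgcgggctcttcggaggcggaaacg
Chek1, chr9:36726659-36726908, minus strand: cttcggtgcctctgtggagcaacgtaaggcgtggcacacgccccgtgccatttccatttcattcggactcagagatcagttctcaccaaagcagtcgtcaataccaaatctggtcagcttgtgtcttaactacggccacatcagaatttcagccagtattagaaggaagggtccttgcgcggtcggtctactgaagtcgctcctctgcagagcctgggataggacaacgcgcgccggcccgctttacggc
Mdc1, chr17:35841248-35841497, plus strand: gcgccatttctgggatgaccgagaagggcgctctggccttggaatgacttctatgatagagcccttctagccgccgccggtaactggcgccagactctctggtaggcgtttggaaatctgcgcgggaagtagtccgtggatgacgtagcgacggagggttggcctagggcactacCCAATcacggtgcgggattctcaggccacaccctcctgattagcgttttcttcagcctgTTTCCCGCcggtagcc
E2F factors drive genes of S phase. Their words were searched as TTTCCCGC, TTTGGCGC, TTTCGCGC and TTTGCCGC on both strands of the 300 bases, and 7 of the 38 promoters (18.4%) held at least 1 of them, against 2.26% of the 32851 promoters in the table. These 7 were Chek2, Mdc1, Xrcc6, Bard1, Brca2, Rad51c and Msh6. The CCAAT box, searched as CCAAT on both strands, was in 20 of the 38 (52.6%), against 37.4% of all promoters. The cell cycle element TTTGAA was in 2 (5.26%, against 17.9%), and the palindromic word of NRF1, a factor of housekeeping promoters, in 1 (2.63%, against 0.971%). The searched words do not contain one another. The members' promoters had a median GC content of 59.2%, and all promoters 52.7%, and the match counts were not adjusted for it. The shares over all promoters cover every entry and were not limited to the genes tested here. The Atm sequence holds 1 CCAAT box, on the opposite strand, and the Mdc1 sequence 1 E2F word and 1 CCAAT box. The Chek1 and Xrra1 sequences hold no match in these letters, which says nothing about the factors themselves. The Chek1 stretch lies inside the gene as GENCODE places it (36708482 to 36727065, minus strand). So does the entry of Xrcc6, 1 of the 7 with an E2F word (82016119 to 82016418, in a plus-strand gene from 81987835 to 82040085). The entries of Xrcc1 and Ercc1 also lie inside their genes. The bases before those GENCODE starts were not searched.

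Per base of exon, the repair genes were expressed at low to middling levels. On the RPKM scale (CPM per kilobase of the gene's exons) the median over all tested genes was 2.25, and 16 of the 45 members lay above it. The single-strand break sensor Parp1 was the highest of the 45 at a mean of 7.57 RPKM over the 9 libraries. The DNA helicase Ercc3 of the TFIIH complex followed at 7.06, the break sensor subunit Nbn at 5.82 and the checkpoint kinase Chek2 at 5.08. At the low end stood Rad51b, a recombination gene, at 0.106 RPKM, Rad54l at 0.129, Fancd2 at 0.138 and Brca1 at 0.139. Only 8 of the 44 neighbouring pairs in this order differed by more than the larger of their SDs over the libraries, so most neighbours are not separated. The pathways differed in level. The median member had 0.201 RPKM in homologous recombination, 0.193 in the Fanconi anaemia pathway, 0.781 in end joining, 2.11 in damage signalling, 2.74 in base excision and 2.88 in nucleotide excision repair, and Msh6 had 3.32. Xrcc3 was the exception within homologous recombination, at 2.04 RPKM. Among the apical kinases, Atm had 1.88 RPKM, Prkdc 0.706 and Atr 0.409. These values divide by all annotated exon bases, 10338 for Atm, 13187 for Prkdc and 23629 for Atr. The place of Atr below Prkdc depends on those lengths, as the CPM values of both genes overlap.

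**Figure D1:**
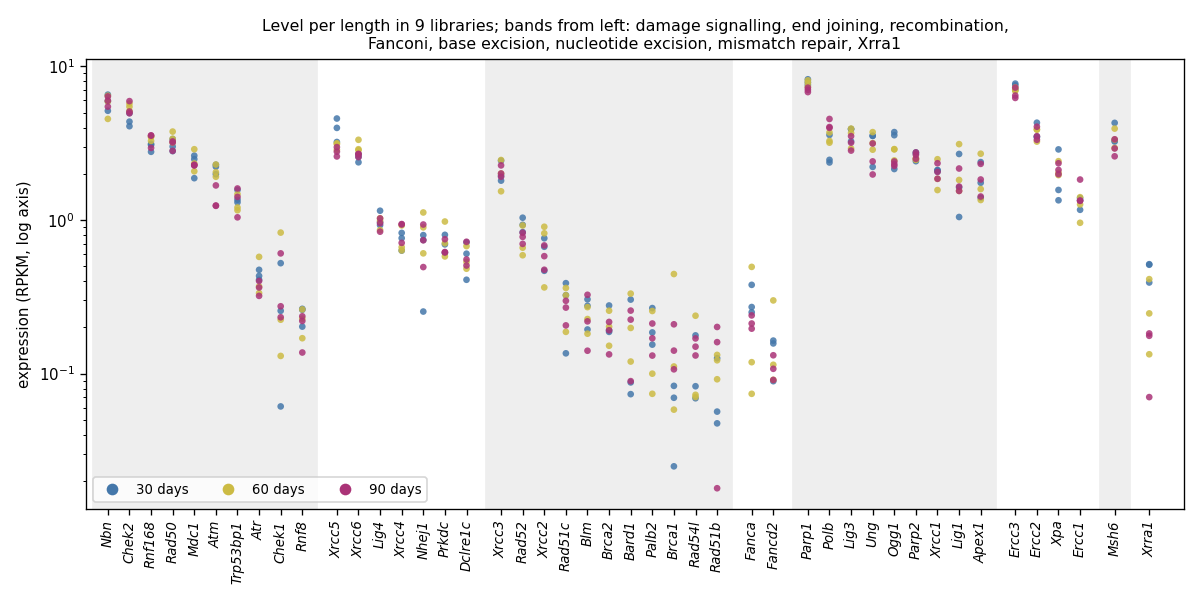
RPKM (log axis) of each of the 45 genes, grouped by pathway, with a point for each of the 9 libraries. Both Fanconi anaemia genes and most recombination genes sit low, Xrcc3 at a mean of 2.04 apart, and Parp1 sits highest at 7.57.

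From 30 to 60 days no member passed the threshold. The test called 0 of the 45, against 1.56% of all genes, with 3 at an unadjusted p under 0.05 (6.67%, against 12.4% of all genes). DESeq2 and limma-voom also called 0, with 1 each at an unadjusted p under 0.05. The 3 values of each time did not overlap for 3 members that were higher at 60 days, Chek2, Rnf168 and Xrcc6 (6.67%, against 8.65% of all genes), and for 1 that was lower, Xrcc5 (2.22%, against 8.22%). From 60 to 90 days the test again called 0 members, against 0.256% of all genes, and the only one at an unadjusted p under 0.05 was Atm (2.22%, against 10.8%). DESeq2 called Atm there (adjusted p = 0.0188), as did the test without 90-day library 1 (-0.76, adjusted p = 0.0242), and limma-voom called 0 with 3 at an unadjusted p under 0.05. The values of Polb were all higher at 90 than at 60 days (8.3% of all genes), and those of Atm, Xrcc6, Ogg1 and Parp1 all lower (7.64% of all genes).

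From 30 to 90 days 3 members passed, against 3.57% of all genes: the polymerase gene Polb rose, and the kinase gene Atm and Xrra1 fell. The 3 calls are 6.67% of the 45. With 1 called higher and 2 lower, the shares were 2.22% and 4.44%, against 1.81% and 1.77% of all genes. At an unadjusted p under 0.05 there were 4 members, 8.89%, against 16.8% of all genes. Values that did not overlap were found for 2 members that were higher at 90 days, Brca1 and Polb (4.44%, against 11.4% of all genes), and for 7 that were lower, Atm, Atr, Xrcc5, Rad52, Fanca, Parp1 and Xrra1 (15.6%, against 11.8%). The median log2 fold change of the 45 was -0.04, with 18 of 45 above 0, and that of all genes was 0.01, with 52.1% above 0. DESeq2 and limma-voom each called 3 members as well. In the test of any difference among the 3 times, Atm alone was called (adjusted p = 0.0191), 2.22% of the members against 3.29% of all genes, and 4 had an unadjusted p under 0.05 (8.89%, against 16.7%). The contrast of 60 days with the mean of 30 and 90 days called 0 members, against 0.256% of all genes, with Atm the only one at an unadjusted p under 0.05 (2.22%, against 9.45%). DESeq2 and limma-voom called 0 there, with 2 and 1 at an unadjusted p under 0.05.

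**Figure D2:**
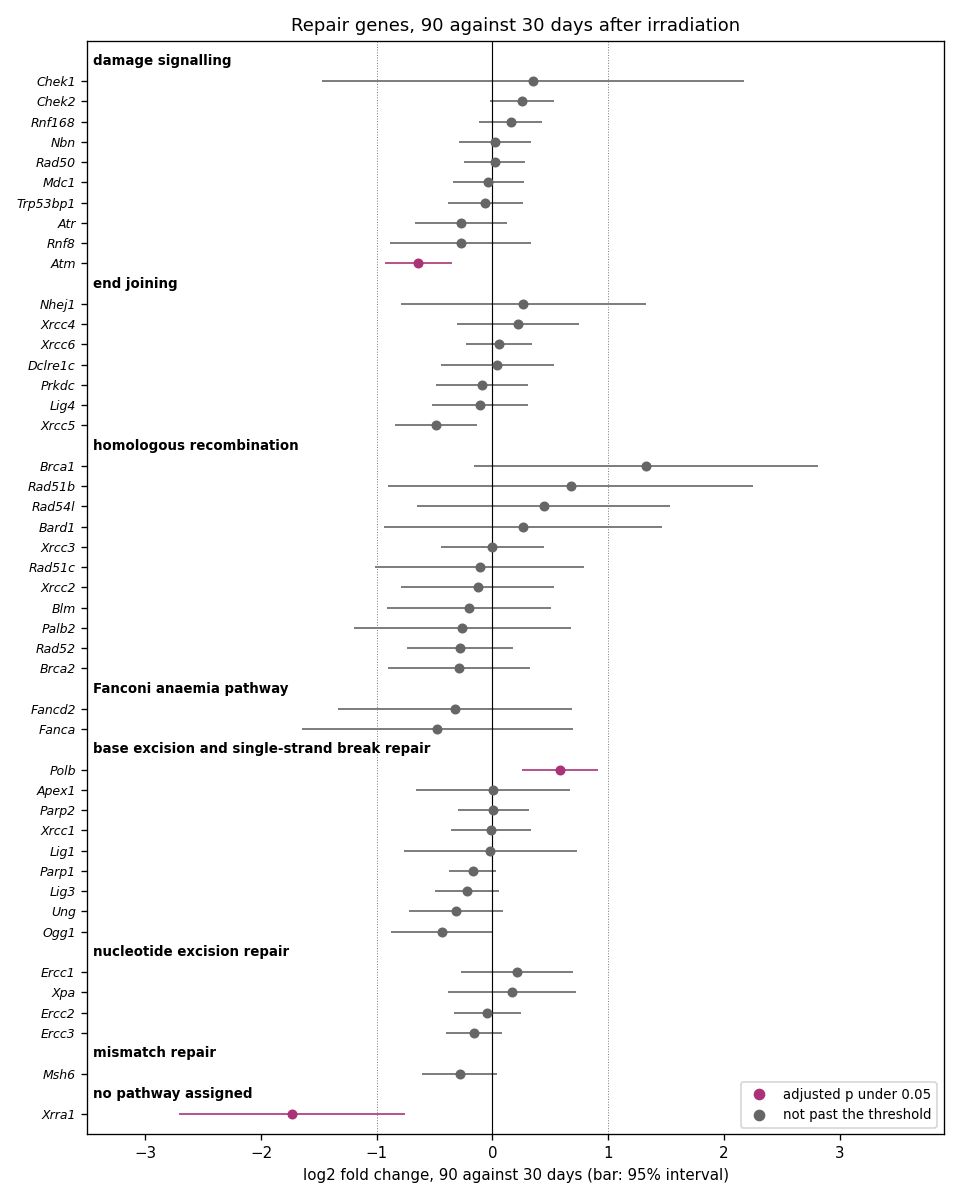
Log2 fold change of each of the 45 genes at 90 against 30 days, with its 95% interval, grouped by pathway; the dotted lines mark a 2-fold change either way. The intervals of Atm, Xrra1 and Xrcc5 lie below 0 and that of Polb above it (Xrcc5 without passing the adjusted threshold). The widest are those of Chek1, Rad51b and Brca1, and an interval is unadjusted for the number of genes.

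Atm, the kinase that starts the response to double-strand breaks, had overlapping values at 30 and 60 days and lower ones at 90. Its gene (ENSMUSG00000034218) lies on chromosome 9, 53439149 to 53536740, on the minus strand of GRCm38. Its level was 23.7, 23.0 and 20.5 CPM in the 30-day libraries, 19.8, 21.2 and 23.7 at 60 days, and 17.4, 12.8 and 12.9 at 90 days. All 3 values at 90 days lie below all 6 earlier ones, and the 30-day and 60-day values overlap. The means were 22.4 ± 1.65, 21.6 ± 2.01 and 14.3 ± 2.62 CPM (SD, n = 3 each). At 90 against 30 days the log2 fold change was -0.64 ± 0.14 (SE; 95% interval -0.93 to -0.35; adjusted p = 0.0132). From 60 to 90 days it was -0.59 ± 0.14 (adjusted p = 0.0850), and from 30 to 60 days -0.05 ± 0.14 (adjusted p = 0.919). Leaving out 30-day library 1 or 2 or 90-day library 2 or 3 ended the 90-day call, with adjusted p-values of 0.0689, 0.0536, 0.0861 and 0.0724, and scaling by library size alone gave -0.41 (adjusted p = 0.249).

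Atm shares its promoter region with Npat, a histone gene regulator that starts 307 bases away and is transcribed in the other direction. Npat was looked up after the values of Atm had been seen. Its level ran from 6.88 to 10.5 CPM at 30 days, 6.56 to 12.4 at 60 days and 8.39 to 9.45 at 90 days. Its log2 difference between 30 and 90 days was -0.02 ± 0.21 (adjusted p = 0.977), and the difference between both genes was not tested. No exon of Atm overlaps another annotated gene. Of the 45 members, 14 had such a neighbour, starting within 1000 bases in the other direction. Among the neighbours tested, only Pomgnt1, beside Rad54l, passed. It was lower at 60 than at 30 days (-0.47 ± 0.12, adjusted p = 0.0485) and at 90 than at 30 days (-0.54 ± 0.12, adjusted p = 0.0132).

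The other 9 damage signalling genes did not pass in any contrast. Atr, the kinase for single-stranded DNA, measured 11.2, 10.2 and 9.65 CPM at 30 days and 9.47, 8.59 and 7.58 at 90 days, without overlap, with a log2 fold change of -0.27 ± 0.19 (adjusted p = 0.519). Its 60-day values of 7.90, 8.73 and 13.6 CPM overlapped both. Chek2, the kinase downstream of Atm, had 13.1, 12.2 and 14.9 CPM at 30 days and 16.4, 15.3 and 17.2 at 60 days. All 3 values at 60 days were above those at 30, with a log2 fold change of 0.28 ± 0.13 (adjusted p = 0.397), and at 90 days against 30 it was 0.25 ± 0.13 (adjusted p = 0.351). Rnf168, the ligase that spreads ubiquitin from broken ends, showed the same order of values, with 12.4, 14.0 and 13.7 CPM at 30 days and 15.5, 14.6 and 15.6 at 60 days (0.19 ± 0.13, adjusted p = 0.612).

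Trp53bp1, which favours end joining at breaks, lay between 14.7 and 22.7 CPM in all 9 libraries, with a log2 fold change from 30 to 90 days of -0.06 ± 0.15 (95% interval -0.38 to 0.26). Up to 15.0% of its exon bases overlap Tubgcp4 on the other strand. The scaffold gene Mdc1 ran from 13.9 to 21.4 CPM (-0.04 ± 0.15). The break sensor subunits Rad50 and Nbn differed by 0.02 ± 0.13 and 0.02 ± 0.15. Their 95% intervals, -0.25 to 0.28 and -0.29 to 0.33, leave no room for a 1.5-fold change either way. Rnf8 had 1.61 to 3.09 CPM and a log2 fold change of -0.28 ± 0.29 (adjusted p = 0.710). Chek1 was scattered within each time, at 0.284, 1.19 and 2.43 CPM at 30 days, 0.604, 1.04 and 3.84 at 60 days, and 1.08, 1.27 and 2.81 at 90 days. Its lowest value rests on 4 counts, and its 95% interval from 30 to 90 days, -1.47 to 2.17, is the widest of all 45. At 60 against 30 days Chek1 had a log2 fold change of 0.47 ± 0.81, and of -0.68 ± 0.67 without 60-day library 3.

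**Figure D3:**
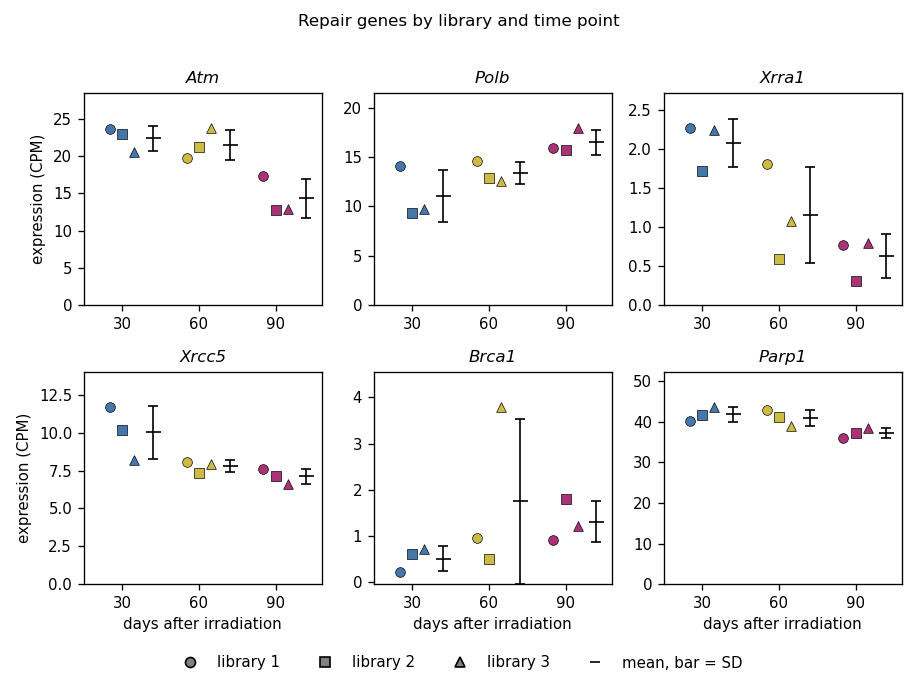
CPM of Atm, Polb, Xrra1, Xrcc5, Brca1 and Parp1 in each library at 30, 60 and 90 days (points), with the mean and SD of each time (bars, n = 3). The 90-day values of Atm lie below all others, at 12.8 to 17.4 CPM, those of Polb lie above all others, at 15.7 to 17.9 CPM, and Brca1 has a single high value of 3.80 CPM at 60 days.

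In the end joining pathway no gene passed. Its first step is binding of the broken end by Ku, a pair of proteins from Xrcc5 (Ku80) and Xrcc6 (Ku70), and the 2 genes did not show the same order of values. Xrcc5 measured 11.7, 10.2 and 8.23 CPM at 30 days, 8.07, 7.33 and 7.97 at 60 days, and 7.62, 7.12 and 6.63 at 90 days. All later values lie below all 30-day values, with 8.23 and 8.07 CPM nearly touching. The log2 fold change was -0.36 ± 0.17 at 60 days (adjusted p = 0.385) and -0.49 ± 0.17 at 90 days (95% interval -0.84 to -0.14; adjusted p = 0.124). Xrcc6 measured 10.6, 12.0 and 11.5 CPM at 30 days, 12.7, 12.9 and 14.9 at 60 days, and 11.5, 12.1 and 12.0 at 90 days. It was highest at 60 days in all 3 libraries, with a log2 fold change against 30 days of 0.25 ± 0.14 (adjusted p = 0.486), and at 90 days it stood 0.06 ± 0.14 from the start. The difference between the 2 Ku genes was not tested.

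Prkdc, the kinase recruited by Ku, had 10.6, 9.15 and 8.05 CPM at 30 days, 7.64, 9.32 and 12.9 at 60 days and 8.16, 8.11 and 9.89 at 90 days, with full overlap. Its log2 fold change at 90 days was -0.09 ± 0.19 (95% interval -0.49 to 0.31). Among the genes of end trimming and ligation, the nuclease gene Dclre1c (Artemis) differed by 0.04 ± 0.23, the ligase gene Lig4 by -0.11 ± 0.20, and its partner Xrcc4 by 0.22 ± 0.25. Nhej1, the Xrcc4-like factor, had 0.284 to 1.25 CPM, from 4 to 31 counts, and its interval from -0.79 to 1.33 does not exclude a 2-fold change.

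Homologous recombination had 0 of 11 genes called in each contrast, with 1 at an unadjusted p under 0.05, Brca1 at 60 against 30 days. Brca1, which commits a break to recombination, measured 0.213, 0.594 and 0.710 CPM at 30 days, 0.950, 0.497 and 3.80 at 60 days, and 0.910, 1.79 and 1.20 at 90 days. All 90-day values were above all 30-day values, and the 60-day values overlapped those of both other times. The 9 libraries held only 3 to 91 counts of it. The log2 fold change was 1.76 ± 0.69 at 60 days (95% interval 0.28 to 3.23; adjusted p = 0.297) and 1.33 ± 0.69 at 90 days (-0.16 to 2.82; adjusted p = 0.359). Without 60-day library 3, the value at 60 days was 0.49 ± 0.60 (adjusted p = 0.756). Without a filter on low counts, Brca1 was called at 60 days (adjusted p = 0.0133).

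Bard1, the partner of Brca1, had 0.416 to 1.72 CPM at 30 days, 0.678 to 1.88 at 60 and 0.506 to 1.46 at 90, with overlap throughout. Brca2, a central recombination gene, ran from 1.82 to 3.79 CPM and had a log2 fold change from 30 to 90 days of -0.29 ± 0.29, and its binding partner Palb2 one of -0.26 ± 0.45. Rad54l, a motor protein that helps strand invasion, measured 0.638, 1.37 and 0.533 CPM at 30 days, 0.561, 0.543 and 1.84 at 60 days and 1.01, 1.31 and 1.15 at 90 days. Its log2 fold change was 0.21 at 60 days and -0.62 without 60-day library 3, and at 90 days it was 0.44 ± 0.52 (95% interval -0.65 to 1.54). Up to 15.4% of its exon bases overlap Lrrc41. Rad52, a strand annealing protein, was lower in each 90-day library (4.75, 4.02 and 4.47 CPM) than at 30 days (5.95, 5.35 and 4.80), with a log2 fold change of -0.28 ± 0.22 (adjusted p = 0.581). Of the remaining recombination genes, Rad51b differed by 0.68 ± 0.75 on 2 to 22 counts, Rad51c by -0.11 ± 0.43, Xrcc2 by -0.13 ± 0.31 and Xrcc3 by 0.00 ± 0.21. The helicase gene Blm differed by -0.20 ± 0.34.

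The Fanconi anaemia genes act at DNA crosslinks. Fancd2, the protein that the pathway marks with ubiquitin, measured 0.709, 1.25 and 1.30 CPM at 30 days, 0.906, 0.724 and 2.38 at 60 days and 1.05, 0.722 and 0.853 at 90 days. Its log2 fold change was 0.29 at 60 days and -0.42 without 60-day library 3, and at 90 days -0.32 ± 0.48 (95% interval -1.33 to 0.69). Fanca, a subunit of the core complex, had 2.20, 2.38 and 3.32 CPM at 30 days, 0.647, 1.04 and 4.34 at 60 days, and 1.72, 2.10 and 1.86 at 90 days. The 60-day libraries thus held both its lowest and its highest values. Its log2 fold change at 60 against 30 days was -0.38 ± 0.54 (adjusted p = 0.837), and without 60-day library 3 it was -1.64 ± 0.39 and passed (adjusted p = 0.0332).

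60-day library 3 held the highest value of 5 of the 11 recombination genes, both Fanconi anaemia genes and 5 of the 10 damage signalling genes, but of 1 of the 9 base excision genes and none (0) of the nucleotide excision genes. The listed markers of dividing cells had their highest CPM in the same library, except Ccnb1 (highest in 30-day library 3) and Plk1 (highest in 90-day library 2). The summed CPM of 20 proliferation markers was 102.7, 177.7 and 198.4 at 30 days, 147.8, 131.3 and 286.1 at 60 days, and 124.7, 172.5 and 183.4 at 90 days. Over the 9 libraries, 32 of the 45 genes (71.1%, against 51.4% of all tested genes) correlated positively with this sum on the log2 scale. None (0) passed Benjamini-Hochberg adjustment over the 45 in the exact permutation test, where 8 had an unadjusted p under 0.05 (17.8%, against 6.04% of all genes) and the smallest adjusted p was 0.0598. All 8, namely Bard1, Brca1, Brca2, Chek1, Fancd2, Lig1, Mdc1 and Xrcc6, had a positive r. Adjusted over all 15224 genes, 0 members and 0 genes passed. Scaled by library size alone, 88.5% of all genes had a positive r and 20.5% an unadjusted p under 0.05, against 95.6% and 35.6% of the members. With that scaling 10 members, the same 8 with Parp1 and Rnf168, passed adjustment over the 45, and 0 over all genes.

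The highest Pearson r was that of Chek1, the checkpoint kinase of S phase, with a value of 0.88 (exact permutation p = 0.00239, adjusted p = 0.0598) and a Spearman rho of 0.90 (exact permutation p = 0.00203, adjusted p = 0.0913). Mdc1 had an r of 0.87 (exact permutation p = 0.00399) and a rho of 0.70, and Lig1, the ligase that seals Okazaki fragments, an r of 0.87 (exact permutation p = 0.00370) and a rho of 0.73. Without the libraries farthest from the median of the marker sum, 30-day library 1 and 60-day library 3, r was 0.68 for Chek1, 0.52 for Mdc1 and 0.55 for Lig1. The order of the genes thus depended on the measure: Brca2, with an r of 0.68 over all 9 libraries, had a rho of 0.82 and an r of 0.77 without those 2. For Brca1 r went from 0.81 to 0.23 and for Xrcc6 from 0.71 to -0.35, so those relations rest on these 2 libraries. With each time centred on its own mean, r was 0.91 for Chek1, 0.86 for Mdc1 and Lig1, and 0.94 for Brca1. Of the genes called between 30 and 90 days, Atm had an r of -0.03 (-0.18 centred), Polb of -0.30 (-0.59 centred) and Xrra1 of -0.06 (-0.03 centred). The median r was 0.69 in the Fanconi anaemia pathway, 0.53 in homologous recombination, 0.34 in end joining, 0.16 in damage signalling, 0.06 in base excision and -0.43 in nucleotide excision repair. Without the 2 farthest libraries these medians were 0.52, 0.36, 0.14, -0.04, 0.34 and -0.49, so that recombination and base excision were then close. Both sides of each correlation come from the same libraries, and the part of dividing cells in these levels was not tested.

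**Figure D4:**
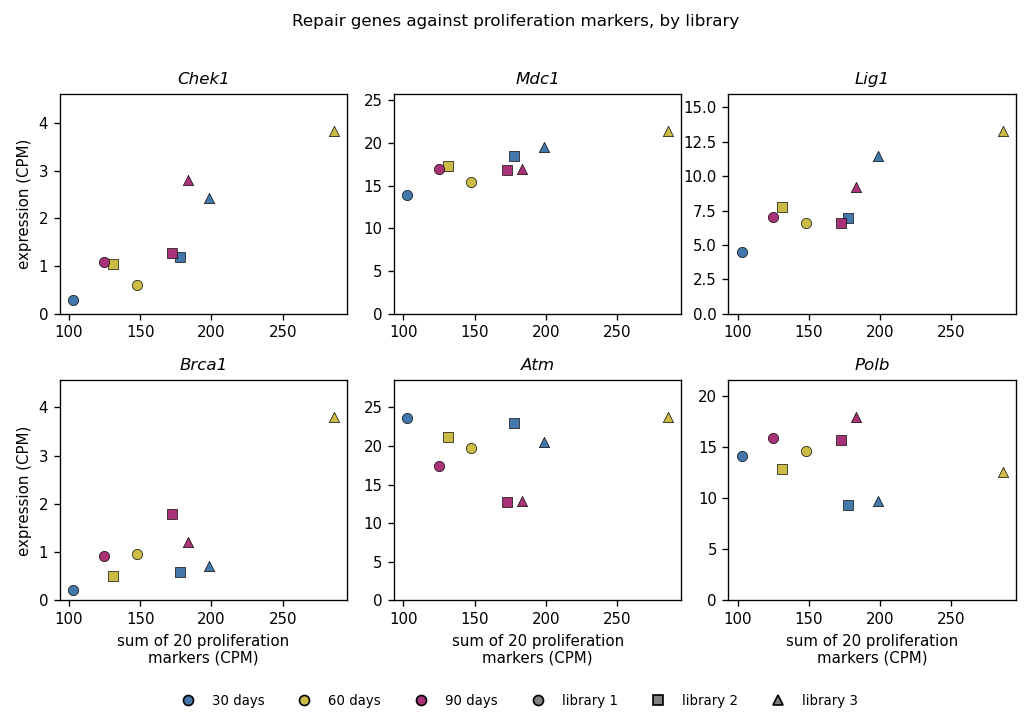
CPM of Chek1, Mdc1, Lig1, Brca1, Atm and Polb in each of the 9 libraries against the summed CPM of 20 proliferation markers, with each time in its own colour. Chek1, Mdc1 and Lig1 are highest in the library with the most marker RNA, 60-day library 3 at 286.1 CPM. Atm is also highest there, but almost as high in 30-day library 1, which has the least marker RNA (r of -0.03). Polb does not follow the order of the marker sum (r of -0.30).

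In base excision and single-strand break repair, 1 of the 9 genes passed. Polb, the polymerase that fills the gap left by a removed base, rose between 30 and 90 days. Its gene (ENSMUSG00000031536) lies on chromosome 8, 22628126 to 22653435, on the minus strand of GRCm38. Its level was 14.1, 9.33 and 9.71 CPM at 30 days, 14.6, 12.9 and 12.6 at 60 days, and 15.9, 15.7 and 17.9 at 90 days. All 90-day values lie above all 6 earlier ones, and 30-day library 1 is as high as the 60-day libraries. The means were 11.0 ± 2.65, 13.4 ± 1.11 and 16.5 ± 1.24 CPM (SD, n = 3 each). At 90 against 30 days it differed by a log2 fold change of 0.58 ± 0.16 (95% interval 0.25 to 0.91; adjusted p = 0.0454), just inside the threshold. It was lost with DESeq2-type size factors (0.57, adjusted p = 0.0505) and without 30-day library 2 or 3, 60-day library 2, or any of the 90-day libraries, and over all alternatives the adjusted p ran from 0.00666 to 0.193.

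The genes that work with Polb did not move with it past the threshold. Parp1, which binds broken strands and builds poly(ADP-ribose), measured 40.1, 41.8 and 43.6 CPM at 30 days, 42.9, 41.3 and 39.0 at 60 days, and 36.0, 37.3 and 38.5 at 90 days. All 90-day values lie below all earlier ones, but the shift is small, with a log2 fold change of -0.17 ± 0.10 (95% interval -0.37 to 0.03; adjusted p = 0.406). Parp2 ran from 8.76 to 9.99 CPM (0.01 ± 0.15). The scaffold Xrcc1 had 12.1, 12.3 and 12.3 CPM at 30 days and 10.8, 12.0 and 13.7 at 90 days, a difference of -0.01 ± 0.16 (95% interval -0.36 to 0.33). Lig3, the ligase that Xrcc1 binds, differed by -0.22 ± 0.13 (adjusted p = 0.443), and 25.1% of its exon bases overlap Rffl. Lig1, with 63 to 319 counts per library, did not pass in any contrast. Its 95% interval at 90 against 30 days lay within a 2-fold change either way. Those at 60 against 30 and at 90 against 60 days reached a 2-fold change. Among the enzymes that start the pathway, Ogg1, which removes oxidised guanine, had 7.80, 4.70 and 8.17 CPM at 30 days and 5.26, 5.05 and 4.92 at 90 days (-0.44 ± 0.21, adjusted p = 0.306). Ung, which removes uracil, had 12.1 to 19.3 CPM at 30 days and 10.8 to 17.2 at 90 days (-0.31 ± 0.19, adjusted p = 0.450). Apex1, which cuts at the lost base, differed by 0.01 ± 0.32, but 61.7% of its exon bases overlap Pip4p1 on the other strand, and use of strand in counting is not given in the sources used here.

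In nucleotide excision and mismatch repair no gene passed in any contrast, and none had an unadjusted p under 0.05. The damage-binding gene Xpa differed between 30 and 90 days by 0.17 ± 0.27, the helicase genes Ercc2 and Ercc3 by -0.04 ± 0.14 and -0.16 ± 0.11. Ercc1, part of the nuclease that cuts beside the lesion, measured 4.18, 3.63 and 4.32 CPM at 30 days, 3.93, 2.98 and 4.38 at 60 days, and 4.15, 5.71 and 4.17 at 90 days, with overlap (0.21 ± 0.23; 95% interval -0.27 to 0.70). Ercc2 shares 42.7% of its exon bases with other genes. Msh6, which helps recognise mismatched bases, had 18.6, 14.1 and 14.3 CPM at 30 days, 14.5, 12.8 and 17.1 at 60 days, and 11.3, 14.6 and 12.7 at 90 days. Its log2 fold change at 90 days was -0.28 ± 0.15 (95% interval -0.61 to 0.04; adjusted p = 0.374).

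Xrra1, a gene named for a link to X-ray resistance in cultured cells, had the largest fall among the 45. It lies on chromosome 7, 99859116 to 99917822, on the plus strand of GRCm38 (ENSMUSG00000035211). It measured 2.27, 1.72 and 2.25 CPM at 30 days, 1.81, 0.588 and 1.08 at 60 days, and 0.775, 0.309 and 0.803 at 90 days. The 30-day and 90-day values do not overlap, and the 60-day values overlap those of both other times. The means were 2.08 ± 0.309, 1.16 ± 0.616 and 0.629 ± 0.277 CPM (SD, n = 3 each). Its log2 fold change was -0.83 ± 0.44 at 60 days (adjusted p = 0.467) and -1.73 ± 0.46 at 90 days (95% interval -2.71 to -0.76; adjusted p = 0.0434). The gene is low, with 9 to 42 counts per library. The call was lost with library-size scaling (-1.52, adjusted p = 0.0834) and when any single 30-day or 90-day library was left out, with values from -1.95 to -1.40 over all alternatives. Of its exon bases, 12.4% overlap transcripts on the other strand.

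For 34 of the 45 genes the 95% interval from 30 to 90 days lay within a 2-fold change either way, and for 17 within 1.5-fold. Within 2-fold lay all 9 base excision genes, all 4 nucleotide excision genes, 9 of the 10 damage signalling genes and 6 of the 7 end joining genes. For the other 11, namely Bard1, Brca1, Chek1, Fanca, Fancd2, Nhej1, Palb2, Rad51b, Rad51c, Rad54l and Xrra1, a 2-fold change lies inside the interval.

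A wider list of 104 other repair genes from the same pathways gave 103 that passed the filter. The test called 0 of them in every contrast, against 1.56%, 0.256% and 3.57% of all genes at 60 against 30, 90 against 60 and 90 against 30 days. At an unadjusted p under 0.05 there were 5 at 60 against 30 days (4.85%, against 12.4% of all genes), 5 at 90 against 60 days (4.85%, against 10.8%) and 9 at 90 against 30 days (8.74%, against 16.8%), and DESeq2 and limma-voom called 0 in each. Without a filter on low counts Fancm, a translocase of the Fanconi anaemia pathway, was called lower at 90 than at 30 days (-0.67 ± 0.21, adjusted p = 0.0392). Rad9a, part of the clamp that helps switch on Atr, was called higher at 90 than at 60 days without that filter (0.80 ± 0.22, adjusted p = 0.0214) and without 60-day library 3 (1.08 ± 0.24, adjusted p = 0.0440). The median log2 fold change of the 103 from 30 to 90 days was -0.02, with 48 of 103 above 0. By pathway, 15 of 20 nucleotide excision genes and 5 of 6 mismatch repair genes had a value below 0, with medians of -0.10 and -0.13, and 11 of 16 damage signalling genes a value above 0, with a median of 0.05.

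The makeup of the gland's RNA also differed between the times, and its part in the levels above was not tested. The summed acinar markers ran from 72090 to 128274 CPM at 30 days, 68521 to 88359 at 60 days and 46041 to 62910 at 90 days. Most of the acinar sum came from Prol1. Mean CPM was lower at 90 than at 30 days for each acinar marker except Amy1, which was higher. The granular duct markers ran from 19957 to 27013, 36379 to 44025 and 31755 to 42437 CPM. The B and plasma cell markers ran from 3.97 to 9.57 CPM at 30 days and from 13.4 to 58.4 at 90 days, and the T cell markers from 0.638 to 1.19 and from 2.29 to 7.56 CPM. Of the defining T cell genes, Cd3d, which did not pass the filter, had 0 counts in all 30-day libraries, 2, 2 and 3 in the 60-day libraries, and 6, 33 and 4 in the 90-day libraries. The myoepithelial markers summed to 244 to 346 CPM at 30 days, 376 to 410 at 60 days and 340 to 469 at 90 days. The sublingual gland markers summed to 0.354 to 2.49 CPM at 30 days, 2.68, 2.98 and 9.85 in 60-day libraries 1 to 3, and 2.06 to 14.7 at 90 days. Over all 9 libraries, the markers of ducts and basal cells summed to 655 to 852 CPM, those of fibroblasts to 305 to 518, of macrophages to 112 to 255 and of endothelial cells to 44.4 to 57.6.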

How the data were processed

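RNA-seq read counts of 9 submandibular gland libraries were used, grouped by the time in their titles. The authors deposited raw counts per Ensembl gene; the submitters' processing notes name fastp, STAR, featureCounts and mm10, and the annotation and use of strand are not given in the sources used here. A further 3 columns match no listed sample and were not used. Genes were filtered with edgeR 4.0.16 (filterByExpr, minimum count 10), scaled by TMM, and all 9 libraries were fitted together (common biological coefficient of variation 0.150) with a term for the time and robust quasi-likelihood tests. R was 4.3.3, limma 3.58.1 and DESeq2 1.42.0. The steps were tested on simulated data. Total counts of 16541396 to 26065856 put the floor of 3 counts at 0.115 to 0.181 CPM before TMM scaling, which covers counting error only. The levels above are scaled by TMM, so 3 counts stand at other CPM values on their scale. Positions and exon lengths come from GENCODE M21. Libraries of a time differed beyond counting noise (chi-square per degree of freedom 10.2 to 35.0), so none was a repeat deposit. The members, gene lists, naming rule and tests were chosen with earlier results of these data known. Named with full statistics were members called in any contrast, the lowest p of each pathway, and a set of central genes; the others are described because they are on the list. The alternatives tried were the size factors of DESeq2, scaling by library size, DESeq2 itself, limma-voom, no filter, at least 10 counts in every sample, 6 samples alone, a replicate block and leaving out each library.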

Additional observations from a re-analysis of the deposited data

How the results depend on the processing

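Atm was called lower at 90 against 30 days in 12 of 17 alternatives (log2 fold change -0.81 to -0.41), Polb higher in 10 of 17 (0.47 to 0.82) and Xrra1 lower in 9 of 16 (-1.95 to -1.40), where the adjusted p ran from 0.000432 to 0.249, 0.00666 to 0.193 and 0.00540 to 0.204. No called value changed sign. Of 989 recomputed single-gene values, 63 changed sign, all of values that had not passed, for which no direction is claimed, and 4 became calls. The sign changes fell on 33 of the 60 results (a gene in a contrast), with log2 fold changes of up to 1.09 in size in the main test. The count of members called was 3 at 90 against 30 days, 1 (Polb) with library-size scaling, which moves the median of all genes there to 0.24, and 0 to 3 with each library left out. At 60 against 30 days it was 0, 1 without the filter (Brca1) and 0 to 1 with a library left out (Fanca, without 60-day library 3). At 90 against 60 days it was 0, 1 with DESeq2, 1 without the filter (Atm in both), and 0 to 1 with a library left out (Atm, without 90-day library 1). For any difference it was 1 (Atm, but Polb with library-size scaling), 2 with DESeq2, 4 without the filter and 0 to 2 with a library left out. The count related to proliferation markers was 0, 10 with library-size scaling and 0 to 1 with a library left out (Bard1, without 30-day library 2). The cause of these shifts was not tested. Same-numbered libraries of different times correlated at -0.060 to 0.191 and others at -0.210 to 0.189. No pairing by number was seen, but 9 same-numbered pairs are too few to exclude it. With the sample number as a replicate block, Atm, Polb and Xrra1 kept their calls (adjusted p = 0.0126, 0.0317 and 0.0166), and the count for any difference was 2. The widest 95% intervals at 90 against 30 days are those of Chek1, Rad51b and Brca1, where low counts and the spread between libraries were not told apart.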
